A study of Mus musculus with 6 samples.

Results

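The mitosis and spindle genes are 40 listed genes whose products drive a cell through division, grouped here into 10 roles: entry into mitosis, mitotic kinases, the spindle checkpoint, the ubiquitin pathway of anaphase, the chromosomal passenger complex, centromere and kinetochore, mitotic kinesins, spindle microtubule proteins, cytokinesis, and mitotic chromosome proteins. The members were taken by name, and each was read from the probe set that carries its symbol alone and has the highest mean over the 6 arrays. Of the 40 listed genes, 39 were measured this way, among 18194 genes in all. Ccnb1, which encodes cyclin B1, has no probe set with its symbol alone in the annotation used and is not analysed here.

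RNA from sorted adult mouse bone marrow cells was measured on 6 Affymetrix arrays, 2 for each of 3 groups. E2A-KO LMPP are lineage-negative SCA1+ KIT+ FLT3-high cells of mice without E2A on a C57bl/6 background. WT LMPP are cells of the same gate from C57bl/6 mice. WT LSK FLT3- are C57bl/6 cells that share the lineage, SCA1 and KIT gate but carry no surface FLT3. LMPP stands for lymphoid-primed multipotent progenitors, and the FLT3- fraction holds the hematopoietic stem cells. The labels name neither the kind of knockout allele nor the number of mice behind an array. With no statement that the 2 arrays of a group are separate mice, every p-value below measures spread between arrays that may be technical. A free-text label describes all 6 samples alike as wild type, so the groups follow the titles. Tcf3, the gene that encodes E2A, had 6.80 and 6.53 (log2) on the E2A-KO LMPP arrays and 6.93 and 6.86 on the WT LMPP arrays with its brightest probe set (change -0.23, SE 0.14, limma adjusted p = 0.50), and since the position of the deletion relative to the probes is not given, this neither bears out nor contradicts the labels.

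Division of a cell starts when cyclin-bound CDK1, released by CDC25 phosphatases, phosphorylates the proteins that condense chromosomes and build the spindle. Kinesins and microtubule binding proteins shape the spindle, kinetochores tie chromosomes to it, and the spindle checkpoint holds back the anaphase promoting complex until every chromosome is attached. Most of these genes are transcribed late in the cell cycle, from promoters that often hold CCAAT boxes and the cell cycle genes homology region, or CHR, which is bound by the DREAM and MuvB complexes. In bone marrow, stem cells are mostly quiescent and progenitors divide more often, so these transcripts are widely used as a readout of cycling.

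The promoters of 5 members are shown because their genes span the patterns found here: Ube2c, Hmmr and Mki67 were higher in WT LMPP than in WT LSK FLT3-, Ccnb2 did not pass the test and Bub3 was lower. The windows run from 250 bases before to 50 bases after the annotated start, on the strand of the gene, 5′ to 3′, from RefSeq on GRCm38.p6. Capitals mark CHR elements (TTTGAA or TTCGAA) and CCAAT boxes (CCAAT) on either strand.
Ube2c, chr2:164769679-164769978, plus strand: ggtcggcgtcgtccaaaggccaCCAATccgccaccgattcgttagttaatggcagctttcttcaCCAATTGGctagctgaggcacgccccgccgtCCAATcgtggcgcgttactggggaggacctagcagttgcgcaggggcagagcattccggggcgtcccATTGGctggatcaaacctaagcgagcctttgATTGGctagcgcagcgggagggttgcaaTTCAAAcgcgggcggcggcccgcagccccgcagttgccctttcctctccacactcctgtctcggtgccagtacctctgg
Hmmr, chr11:40733388-40733687, minus strand: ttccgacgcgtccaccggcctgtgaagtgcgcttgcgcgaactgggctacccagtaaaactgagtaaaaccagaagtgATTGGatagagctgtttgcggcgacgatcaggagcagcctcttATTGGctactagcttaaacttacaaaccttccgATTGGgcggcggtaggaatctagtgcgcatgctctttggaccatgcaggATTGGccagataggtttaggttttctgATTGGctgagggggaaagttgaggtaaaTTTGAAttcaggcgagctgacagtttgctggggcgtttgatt
Mki67, chr7:135716330-135716629, minus strand: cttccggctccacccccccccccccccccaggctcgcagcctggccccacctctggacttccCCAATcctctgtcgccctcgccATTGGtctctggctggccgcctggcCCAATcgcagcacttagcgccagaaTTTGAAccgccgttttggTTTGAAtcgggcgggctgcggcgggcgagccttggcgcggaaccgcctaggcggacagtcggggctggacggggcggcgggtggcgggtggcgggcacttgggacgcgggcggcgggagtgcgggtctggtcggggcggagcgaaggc
Ccnb2, chr9:70421505-70421804, minus strand: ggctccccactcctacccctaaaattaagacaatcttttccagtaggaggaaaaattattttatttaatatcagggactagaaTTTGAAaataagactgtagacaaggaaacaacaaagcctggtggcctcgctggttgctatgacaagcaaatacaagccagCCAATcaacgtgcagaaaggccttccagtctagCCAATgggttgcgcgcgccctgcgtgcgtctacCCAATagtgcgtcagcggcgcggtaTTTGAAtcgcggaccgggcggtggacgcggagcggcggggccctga
Bub3, chr7:131560120-131560419, plus strand: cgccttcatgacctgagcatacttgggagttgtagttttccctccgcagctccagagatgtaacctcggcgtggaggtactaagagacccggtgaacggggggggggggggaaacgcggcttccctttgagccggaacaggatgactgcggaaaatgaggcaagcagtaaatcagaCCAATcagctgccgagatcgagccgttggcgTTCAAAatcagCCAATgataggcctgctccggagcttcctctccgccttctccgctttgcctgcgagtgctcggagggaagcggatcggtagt

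All 5 windows hold both motifs, the one of Bub3 included. Counting the annotated start as base 0, the CHR begins at -29 in Ube2c, at 8 in Hmmr, at -116 and -98 in Mki67, at -167 and 4 in Ccnb2 and at -43 in Bub3. Ube2c has 6 CCAAT boxes, of which those at -186 and -183 overlap on opposite strands, Hmmr has 5, Mki67 and Ccnb2 have 3 each and Bub3 has 2. A window was given for 33 of the 39 measured members, the first listed being used for the 3 members with several, and none for Ccna2, Tpx2, Aurkb, Cdc25c, Kif20a and Incenp. Of these 33 windows, 26 (78.8%) hold a CHR, against 15% of the windows of 14453 genes on the array. A CCAAT box is found in 25 of the 33 (75.8%, against 38.2% of the array's genes), and 23 (69.7%, against 6.13%) hold both motifs. An E box of the form CAGCTG or CAGGTG, on either strand, is in 6 of the 33 windows (18.2%), against 32.3% of the array's genes. Both motifs together stand in 14 of the 18 windows of members higher in WT LMPP than in WT LSK FLT3- (77.8%) and in 8 of the 14 of members that did not pass that test (57.1%). These are counts of letters in a window and do not show that a factor binds there.

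The comparison of E2A-KO LMPP with WT LMPP is the stated goal of the study, and no mitosis or spindle gene passed its test. With limma's moderated test, Benjamini-Hochberg adjustment over all 18194 genes and a threshold of 0.05, 0 of 39 members were called, against 1.37% of all genes (0.379% higher and 0.995% lower). The count was also 0 after quantile normalization, where 1.23% of all genes were called (0.346% higher and 0.885% lower). Without adjustment, 6 of the 39 had p under 0.05, a share close to the 14.6% over all genes. On the deposited values the median change of the 39 was -0.14 (log2), against -0.02 over all genes and -0.04 over the 5297 genes at least as bright as the dimmest member. Of the 39 changes 35 were below 0, against 52.8% of all genes. After quantile normalization the median was -0.11, against -0.01 over all genes, and 32 of the 39 changes were below 0. With the deposited values, both E2A-KO LMPP arrays lay below both WT LMPP arrays for 20 members and above them for 3, while over all genes this held for 22.8% and 18.8%.

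The 6 members with an unadjusted p under 0.05 were about as common as such genes are over the whole array (14.6%). They came from different roles, and each averaged less in E2A-KO LMPP. Kif20a, a kinesin of the central spindle, had 6.76 and 7.13 (log2) on the E2A-KO LMPP arrays and 7.50 and 7.39 on the WT LMPP arrays, a change of -0.50 (SE 0.16, limma adjusted p = 0.19). Cdc25c, the phosphatase that activates CDK1 at mitotic entry, changed by -0.43 (SE 0.14, adjusted p = 0.19). Hmmr, a microtubule binding protein of the spindle pole, changed by -0.42 (SE 0.13, adjusted p = 0.17), and it alone was called with a variance trend and robust estimation (adjusted p = 0.029). Cenpa, the histone H3 variant of centromeres, changed by -0.42 (adjusted p = 0.22), Ube2c, the ubiquitin carrier enzyme of the anaphase promoting complex, by -0.41 (adjusted p = 0.17), and Aurkb, the kinase of the chromosomal passenger complex, by -0.36 (adjusted p = 0.23). For all 6 genes the 2 groups of arrays did not overlap. Since the genes were picked by their p-values on these same arrays, this adds no support. Ndc80, an outer kinetochore protein, and Mad2l1, the checkpoint protein MAD2, stood on the other side with 0.29 (adjusted p = 0.39) and 0.27 (adjusted p = 0.41).

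Mki67, the proliferation antigen that coats mitotic chromosomes, and Top2a, the topoisomerase that untangles them, were close between the genotypes. Mki67 had 11.95 and 11.87 (log2) on the E2A-KO LMPP arrays and 11.91 and 11.96 on the WT LMPP arrays, a change of -0.03 (95% interval -0.31 to 0.26). Top2a had 11.19 and 11.22 on the E2A-KO LMPP arrays and 11.21 and 11.23 on the WT LMPP arrays, a change of -0.01 (95% interval -0.29 to 0.26). Over the 39 members, the 95% interval reached a median of 0.31 and at most 0.41 (log2) to either side of the change. These intervals are not the limit of the test, which adjusts over all genes: Kif20a, at -0.50, was not called. On simulated data for this comparison the test recovered 2.21% of changes of 0.5 and 74.3% of changes of 1. The absence of calls therefore says little about changes of 0.5 or less.

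The gap between the 2 E2A-KO LMPP arrays ran in both directions. Replicate 2 minus replicate 1 had a median of 0.07 (log2) over the 39 members, with 24 higher and 15 lower on replicate 2, and ranged from -0.34 for Birc5 to 0.44 for Kif2c. Kif2c, a kinesin that depolymerizes microtubules at centromeres, had 8.17 and 8.61 on the E2A-KO LMPP arrays and 8.69 and 8.79 on the WT LMPP arrays (change -0.36, adjusted p = 0.36). Birc5, which encodes survivin, had 7.99 and 7.65 on the E2A-KO LMPP arrays and 7.87 and 8.0 on the WT LMPP arrays (change -0.12, adjusted p = 0.78). Summed intensities of 10 myeloid markers, Mpo and Elane included, were 1937 to 2250 in E2A-KO LMPP and 4402 to 4608 in WT LMPP. Of the 10, 6 were called lower in E2A-KO LMPP, and their part in the result was not tested.

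**Figure D1:**
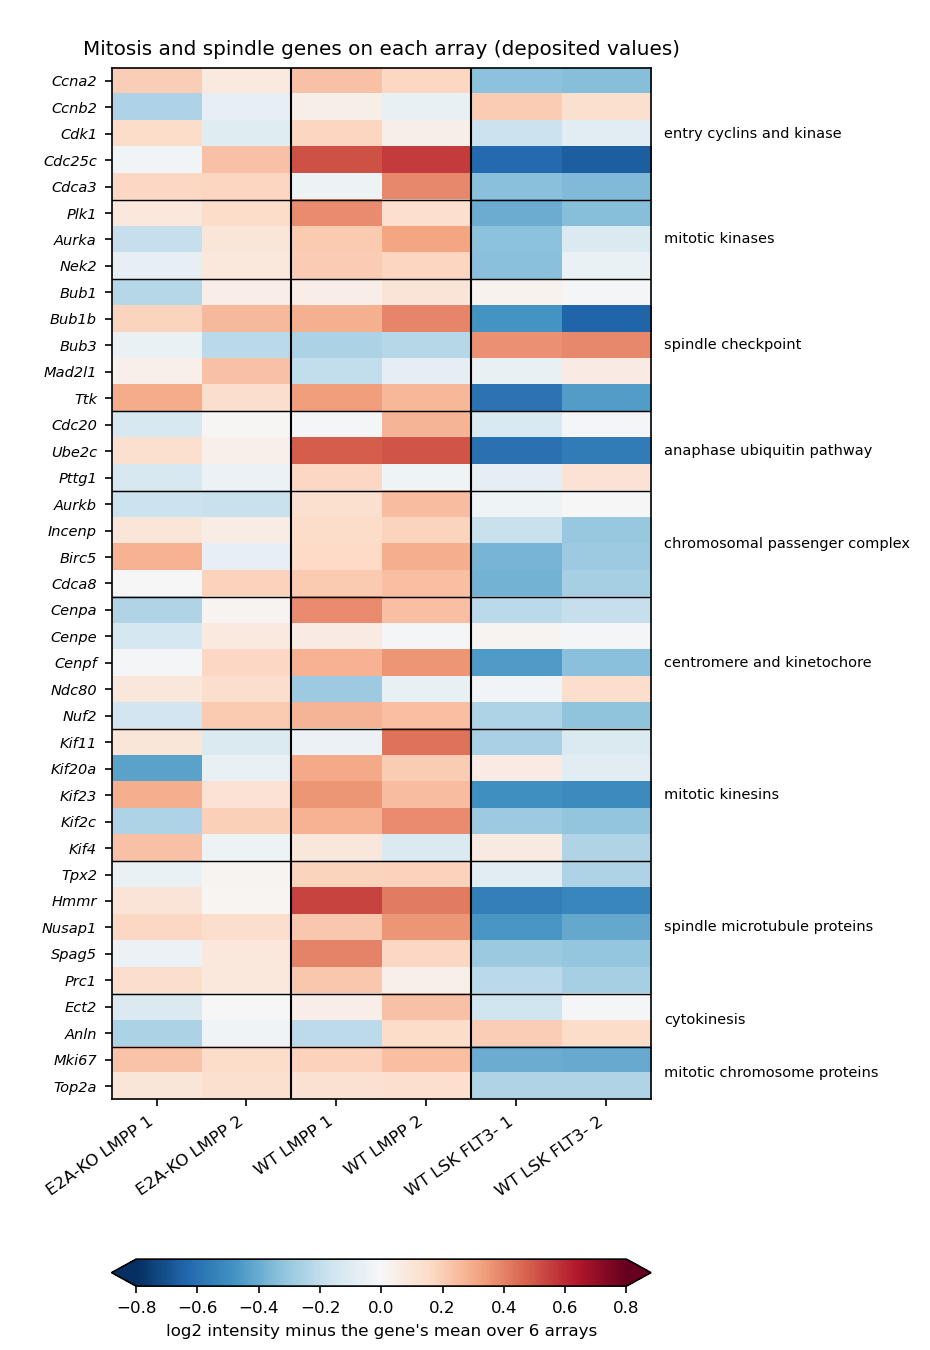
Level of each of the 39 measured genes on each of the 6 arrays, as log2 intensity minus the gene's mean over the 6 arrays, with rows grouped by role and columns by cell group. Most rows are below their mean on both WT LSK FLT3- arrays, Bub3, Ccnb2 and Anln are above it there, and the LMPP groups differ by less, with changes from -0.50 to 0.29.

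WT LMPP carried more RNA of most mitosis and spindle genes than WT LSK FLT3- did. Of the 39 members 21 were higher, 1 (Bub3) was lower and 17 did not pass the test, with a median change of 0.40 (log2). Over all genes 34.1% were called, 10.4% higher and 23.7% lower, and the median change was -0.01. The members' shares were 53.8% higher and 2.56% lower. In sorted populations, a larger share of dividing cells and more RNA in each dividing cell cannot be told apart.

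The number and size of the rises depended on how the arrays were scaled. Values of well measured genes ran higher on the WT LSK FLT3- arrays: the upper quartile of an array was 5.80 and 5.82 (log2) in WT LMPP and 6.13 and 6.15 in WT LSK FLT3-. Among the 5297 genes at least as bright as the dimmest member, the median change was -0.34 on the deposited values, with 290 higher and 2254 lower, and -0.04 after quantile normalization, with 673 higher and 685 lower. After quantile normalization 29 members were higher and 0 lower, with a median change of 0.75, against 19.2% of all genes called, 9.1% higher and 10.1% lower. All 21 genes called higher on the deposited values were among the 29, and 1 member (Bub3) had a change below 0, so the changes below 0 given for other members in this comparison hold on the deposited scale alone.

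Entry into mitosis was led by Cdc25c, which had 7.23 and 7.28 (log2) on the WT LMPP arrays and 6.10 and 6.06 on the WT LSK FLT3- arrays. The change of 1.17 (SE 0.14, limma adjusted p = 0.000584), or 2.26-fold, was the largest among the 39 members on the deposited values. A second Cdc25c probe set, read at 5.13 on average, changed by 0.33 and was not called (limma adjusted p over probe sets = 0.27). Ccna2, which encodes cyclin A2, rose by 0.53 (adjusted p = 0.013), and Cdca3, a factor in the turnover of the mitotic inhibitor WEE1, rose by 0.52 (adjusted p = 0.035). The kinase itself did not pass: Cdk1 had 8.95 and 8.82 on the WT LMPP arrays and 8.60 and 8.69 on the WT LSK FLT3- arrays, a change of 0.24 (adjusted p = 0.21). It was called after quantile normalization (0.55, adjusted p = 0.028). Ccnb2, the gene of cyclin B2, had 8.68 and 8.58 on the WT LMPP arrays and 8.84 and 8.76 on the WT LSK FLT3- arrays, a change of -0.17 (adjusted p = 0.34) that became 0.14 (adjusted p = 0.51) after quantile normalization. On the deposited values the arrays of the 2 fractions did not overlap for any of these 5 genes, with 4 higher in WT LMPP and Ccnb2 lower.

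Of the mitotic kinases, Plk1, which acts from mitotic entry to cytokinesis, had 7.43 and 7.20 on the WT LMPP arrays and 6.66 and 6.72 on the WT LSK FLT3- arrays, a rise of 0.63 (SE 0.14, adjusted p = 0.0090). Aurka, the Aurora kinase of centrosomes and spindle poles, rose by 0.48 (adjusted p = 0.037). Nek2, a kinase of centrosome separation, changed by 0.38 (adjusted p = 0.070) and passed after quantile normalization (0.76, adjusted p = 0.0095). A second Nek2 probe set, read at 6.39 on average, rose by 0.82 on the deposited values (adjusted p over probe sets = 0.0049). The dimmer ones were not called.

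The spindle checkpoint genes split. Bub1b, which encodes the checkpoint kinase BUBR1, had 9.82 and 9.92 on the WT LMPP arrays and 9.05 and 8.89 on the WT LSK FLT3- arrays, a rise of 0.90 (SE 0.13, adjusted p = 0.0015). A second Bub1b probe set, read at 8.20 on average, changed by 0.36 (adjusted p over probe sets = 0.095), and the mean of its probe sets by 0.51 (adjusted p = 0.014). Ttk, the kinase MPS1 that starts checkpoint signalling at kinetochores, rose by 0.82 (adjusted p = 0.0025). Bub3, the adaptor that brings BUB1 and BUBR1 to kinetochores, had 10.39 and 10.42 on the WT LMPP arrays and 11.01 and 11.03 on the WT LSK FLT3- arrays, a fall of 0.62 on the log2 scale (change -0.62, SE 0.13, adjusted p = 0.0072). Its arrays did not overlap on either scale, but after quantile normalization the change was -0.42 and missed the threshold (adjusted p = 0.053). A second probe set of Bub3, read at 6.46 on average, changed by -0.52, in the same direction. Bub1 changed by 0.07 (adjusted p = 0.74) and Mad2l1 by -0.14 (adjusted p = 0.46), so the partners of the checkpoint complex did not move as a block.

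In the ubiquitin pathway of anaphase, Ube2c had 8.15 and 8.17 on the WT LMPP arrays and 7.07 and 7.11 on the WT LSK FLT3- arrays. Its rise of 1.07 (SE 0.12, adjusted p = 0.000558), or 2.10-fold, was well beyond the spread between arrays. Cdc20, the activator of the anaphase promoting complex, changed by 0.20 (adjusted p = 0.32), and Pttg1, the securin that this complex destroys, by 0.04 (adjusted p = 0.85). Neither passed after quantile normalization, with 0.40 (adjusted p = 0.078) for Cdc20 and 0.24 (adjusted p = 0.29) for Pttg1.

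**Figure D2:**
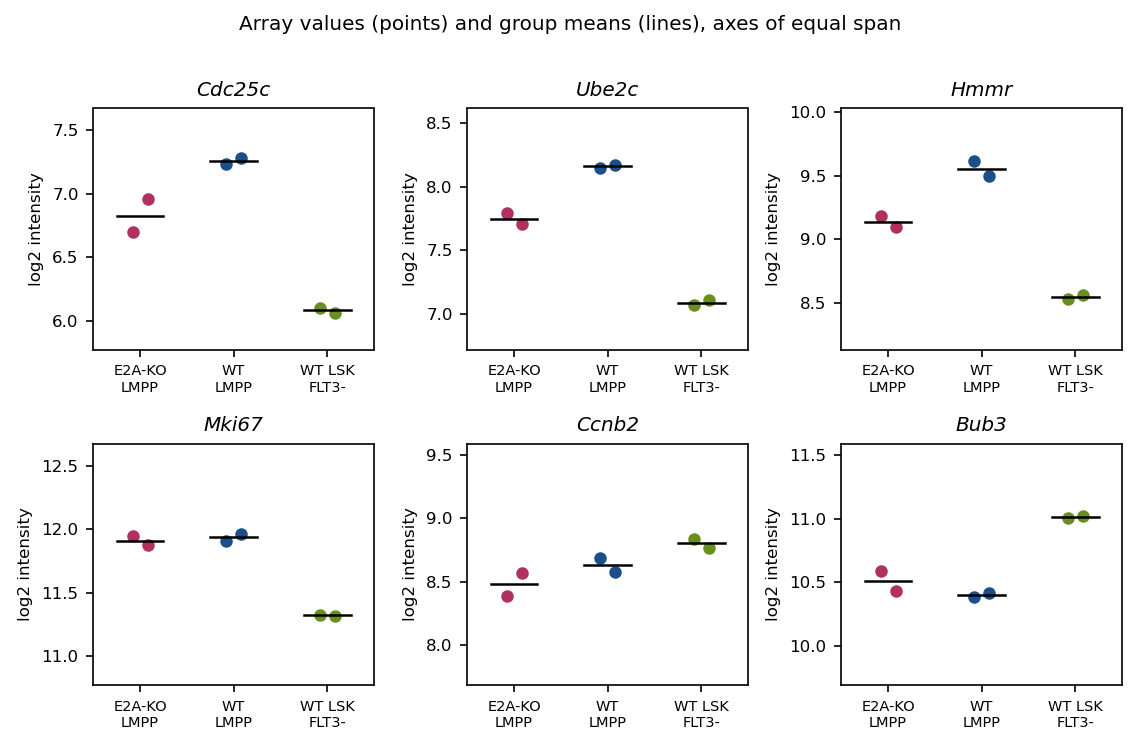
Log2 intensity (deposited values) of 6 genes on each array (points) with the group mean (line), for E2A-KO LMPP, WT LMPP and WT LSK FLT3-, on axes of equal span. Cdc25c, Ube2c and Hmmr are highest in WT LMPP, Mki67 is alike in both LMPP groups and lower in WT LSK FLT3-, and Ccnb2 and Bub3 are highest in WT LSK FLT3-.

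The chromosomal passenger complex, which corrects faulty attachments and later guides cytokinesis, had 3 of 4 members higher in WT LMPP. Birc5 had 7.87 and 8.0 on the WT LMPP arrays and 7.34 and 7.42 on the WT LSK FLT3- arrays, a rise of 0.56 (SE 0.15, adjusted p = 0.022). Cdca8, the borealin subunit, rose by 0.55 (adjusted p = 0.014), and Incenp, the scaffold, rose by 0.40 (adjusted p = 0.038). Aurkb changed by 0.21 (adjusted p = 0.23) and was called after quantile normalization (0.58, adjusted p = 0.013).

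Among the centromere and kinetochore genes, Cenpf, a large coiled-coil protein of the outer kinetochore, had 9.23 and 9.31 on the WT LMPP arrays and 8.50 and 8.62 on the WT LSK FLT3- arrays, a rise of 0.71 (SE 0.13, adjusted p = 0.0046). Nuf2, a partner of NDC80 in the kinetochore, rose by 0.54 (adjusted p = 0.025) and Cenpa by 0.51 (adjusted p = 0.024). Cenpe, the kinetochore motor, changed by 0.02 (adjusted p = 0.92). Ndc80 changed by -0.23 (adjusted p = 0.23), and by 0.17 (adjusted p = 0.43) after quantile normalization.

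Of the mitotic kinesins, Kif23, the centralspindlin motor needed for cytokinesis, had 9.45 and 9.34 on the WT LMPP arrays and 8.61 and 8.59 on the WT LSK FLT3- arrays, a rise of 0.80 (SE 0.13, adjusted p = 0.0026). Kif2c rose by 0.63 (adjusted p = 0.018). Kif11, the motor that pushes spindle poles apart, changed by 0.38 (adjusted p = 0.13), Kif20a by 0.27 (adjusted p = 0.22) and Kif4, a motor of chromosome arms, by 0.07 (adjusted p = 0.75). The other probe sets of Kif11 went the opposite way: one read at 5.45 on average changed by -1.36, and another by -0.16.

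All 5 spindle microtubule proteins had changes above 0, and 3 were called. Hmmr had 9.62 and 9.50 on the WT LMPP arrays and 8.53 and 8.56 on the WT LSK FLT3- arrays, a rise of 1.01 (SE 0.13, adjusted p = 0.000791), or 2.02-fold. Nusap1, which bundles spindle microtubules near chromosomes, rose by 0.72 (adjusted p = 0.0034), and Spag5, the spindle protein astrin, rose by 0.58 (adjusted p = 0.012). Prc1, the bundling protein of the central spindle, changed by 0.37 (adjusted p = 0.058) and Tpx2, the activator of Aurora A, by 0.35 (adjusted p = 0.067). The other Prc1 probe set rose by 0.50 (adjusted p over probe sets = 0.037). Of the other Tpx2 probe sets, the brightest changed by 0.25 (adjusted p over probe sets = 0.34), while dimmer ones rose by 0.92 (0.0079) and 1.12 (0.0012). With quantile normalization all 5 were called higher.

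Neither cytokinesis gene passed on the deposited values. Ect2, which activates RHOA at the cleavage furrow, had 8.74 and 8.92 on the WT LMPP arrays and 8.53 and 8.67 on the WT LSK FLT3- arrays (change 0.23, adjusted p = 0.22), and it was called after quantile normalization (0.54, adjusted p = 0.024). Anln, a scaffold of the contractile ring, had 7.96 and 8.32 on the WT LMPP arrays and 8.37 and 8.32 on the WT LSK FLT3- arrays (change -0.20, adjusted p = 0.35), and its groups overlapped. The other Anln probe set, read at 3.89 on average and so below the array median, was called lower (-0.59, adjusted p over probe sets = 0.033).

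Both mitotic chromosome proteins were higher in WT LMPP. Mki67 had 11.91 and 11.96 on the WT LMPP arrays and 11.32 on each WT LSK FLT3- array, a rise of 0.61 (SE 0.12, adjusted p = 0.0065). Top2a had 11.21 and 11.23 on the WT LMPP arrays and 10.85 on each WT LSK FLT3- array, a rise of 0.37 (SE 0.12, adjusted p = 0.046), which lies close to the threshold. After quantile normalization the rises were 0.80 for Mki67 and 0.57 for Top2a.

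**Figure D3:**
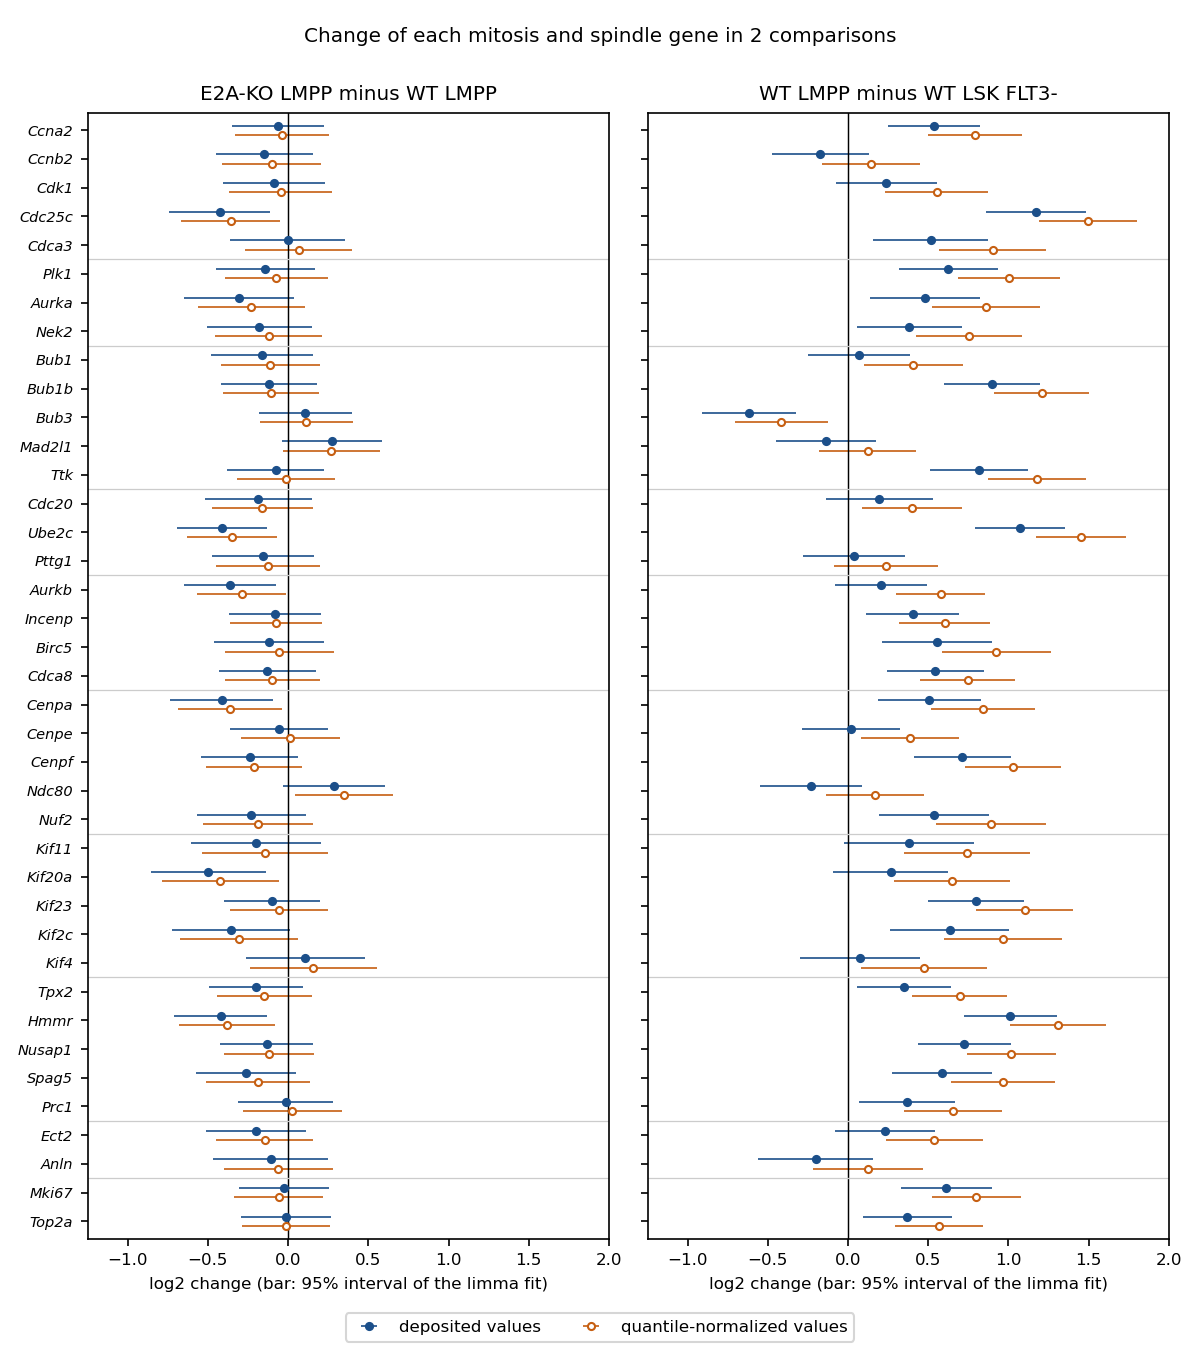
Log2 change of each of the 39 genes (points) with its 95% interval from the limma fit (bars), for E2A-KO LMPP minus WT LMPP on the left and WT LMPP minus WT LSK FLT3- on the right, on deposited (filled) and quantile-normalized values (open). On the left most intervals span 0, from -0.50 for Kif20a to 0.29 for Ndc80 on the deposited values. On the right most points lie above 0, and quantile normalization moves every one of them upwards.

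Calls in this comparison varied in how firmly they held. Cdc25c, Ube2c, Bub1b, Ttk, Hmmr and Nusap1 were called in the fit above and in each of 13 alternative fits, and the other 16 calls were lost in at least 1 of them. Without replicate 1 of WT LSK FLT3- 7 members were called higher, and without replicate 2 of that group 8 were. Bub1, Ccnb2, Cdc20, Cenpe, Kif4, Mad2l1, Ndc80 and Pttg1 were called in none of the fits.

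The Actb reading of RNA quality and the sums of several lists of cell type markers also differed between the fractions. The difference between 3' and 5' Actb probe sets, which grows as RNA is shorter or labelled closer to its end, was 3.89 and 3.95 (log2) on the WT LMPP arrays and 3.55 and 3.45 on the WT LSK FLT3- arrays. For Gapdh it was 3.19 and 3.30 on the WT LMPP arrays and 3.44 and 3.25 on the WT LSK FLT3- arrays, where the groups overlap. Summed intensities of the markers of B and plasma cells (7 of 8 measured) were 258 to 276 in WT LMPP and 1375 to 1523 in WT LSK FLT3-, with Ebf1 below the array median throughout. Igha and Jchain, the immunoglobulin transcripts of plasma cells, were lower in WT LMPP (-5.79 and -4.77), while Sdc1 (1.54), Ebf1 (0.81) and Cd79a (0.72) were called higher, and the median change of the 7 was 0.65. Sums of erythroid markers (6 of 8 measured) were 394 to 445 in WT LMPP and 556 to 570 in WT LSK FLT3-, with Hba-a1 below the median. Those of myeloid markers (10 of 10) were 4402 to 4608 in WT LMPP and 4664 to 5054 in WT LSK FLT3-, with Itgam below it. Of these 10 myeloid markers 5 were called higher and 2 lower (Elane -2.65, Mpo -0.91) in WT LMPP. The 6 erythroid markers were split, with 3 called higher (Hba-a1, Alas2 and Tfrc) and 3 lower (Epor, Klf1 and Gata1) in WT LMPP. Sums of T and NK cell markers were 137 to 142 in WT LMPP and 108 to 109 in WT LSK FLT3- (6 of 8 measured, Cd3d, Cd3g and Ncr1 below the median). Stromal markers summed to 66.8 to 83.0 in WT LMPP and 63.8 to 67.2 in WT LSK FLT3-, with 5 of 6 below the median. The part of these differences in the result was not tested. Of the gate markers, Flt3 was 1.99 (log2) higher and Kit 1.24 lower in WT LMPP (changes of 1.99 and -1.24).

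E2A-KO LMPP were also set against WT LSK FLT3-, a comparison that shares arrays with both others. Of the 39 members 15 were higher, 1 (Bub3) was lower and 23 did not pass, with a median change of 0.28 (log2), against 37.5% of all genes called, 11% higher and 26.5% lower. After quantile normalization 28 were higher and 0 lower, with a median of 0.63, against 19.9% of all genes called, 8.76% higher and 11.1% lower. Without either one of the WT LSK FLT3- arrays, 5 members were called higher. Bub1b had 9.71 and 9.79 on the E2A-KO LMPP arrays and 9.05 and 8.89 on the WT LSK FLT3- arrays, a rise of 0.78 (SE 0.13, adjusted p = 0.0026), while its second probe set changed by 0.24 (adjusted p over probe sets = 0.23) and the mean of its probe sets by 0.39 (adjusted p = 0.037). Cdc25c rose by 0.75 (adjusted p = 0.0038), Ttk by 0.74 (adjusted p = 0.0035), Kif23 by 0.70 (adjusted p = 0.0041) and Ube2c by 0.66 (adjusted p = 0.0041). The second Cdc25c probe set changed by 0.18 (adjusted p over probe sets = 0.54). Hmmr, Nusap1 and Mki67 each rose by 0.59, with adjusted p-values of 0.0076, 0.0076 and 0.0069.

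Rises of a smaller size were called for Cdca3 (0.51), Plk1 (0.48), Ccna2 (0.47), Cenpf (0.47), Birc5 (0.44), Cdca8 (0.41) and Top2a (0.35). Bub3 had 10.59 and 10.43 on the E2A-KO LMPP arrays and 11.01 and 11.03 on the WT LSK FLT3- arrays, a change of -0.51 (adjusted p = 0.015) that became -0.30 (adjusted p = 0.13) after quantile normalization. Aurka (0.18), Incenp (0.32), Cenpa (0.09), Nuf2 (0.31), Kif2c (0.28) and Spag5 (0.32) did not pass here on the deposited values and passed after quantile normalization. Ccnb2 changed by -0.32 (adjusted p = 0.088), Anln by -0.31 (adjusted p = 0.15), Kif20a by -0.23 (adjusted p = 0.27) and Aurkb by -0.16 (adjusted p = 0.35). After quantile normalization all 4 were above 0 and not called, with 0.04 for Ccnb2, 0.07 for Anln, 0.23 for Kif20a and 0.29 for Aurkb. Bub1b, Cdc25c, Ttk and Ube2c were called in each of the 13 alternative fits.

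Sums of several marker lists and the 3' to 5' difference of Actb differed in this comparison too. Myeloid markers summed to 1937 to 2250 in E2A-KO LMPP and 4664 to 5054 in WT LSK FLT3-, with 0 of 10 called higher and 8 lower. Markers of B and plasma cells summed to 355 to 411 in E2A-KO LMPP and 1375 to 1523 in WT LSK FLT3-, with 2 of 7 called higher and 2 lower (Igha and Jchain). Erythroid markers summed to 361 to 369 in E2A-KO LMPP and 556 to 570 in WT LSK FLT3-, with 0 of 6 called higher and 3 lower, and 3 changes above 0. T and NK cell markers summed to 144 to 156 in E2A-KO LMPP and 108 to 109 in WT LSK FLT3-, and stromal markers to 65.3 to 70.7 in E2A-KO LMPP and 63.8 to 67.2 in WT LSK FLT3-. The 3' to 5' difference of Actb was 3.86 and 3.77 on the E2A-KO LMPP arrays and 3.55 and 3.45 on the WT LSK FLT3- arrays, and that of Gapdh was 3.09 and 3.35 in E2A-KO LMPP and 3.44 and 3.25 in WT LSK FLT3-. Their part in these calls was not tested.

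Several members have more than 1 probe set, which gives a second reading from the same arrays. The 39 genes have 92 probe sets, 27 genes have over 1, and 53 probe sets were left aside as the dimmer ones. Between WT LMPP and WT LSK FLT3-, 42 of these 53 changed in the same direction as the one used, 13 were called higher and 4 lower. Between E2A-KO LMPP and WT LMPP, 36 of 53 had the same direction and 0 were called. Among genes whose used probe set was called, 1 had another called in the opposite direction, a Kif23 probe set read at 3.21 on average, below the array median of 3.99 (-0.45 between WT LMPP and WT LSK FLT3-). The dimmest Kif11 probe set (-1.36) was also called lower, while the one used for Kif11 (0.38) was not called.

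Other genes of the division machinery, 93 measured of 95 listed, gave a more mixed picture between WT LMPP and WT LSK FLT3-. On the deposited values 15 (16.1%) were higher and 19 (20.4%) lower, against 10.4% and 23.7% of all genes, with a median change of -0.06. After quantile normalization 27 (29%) were higher and 4 (4.3%) lower, against 9.1% and 10.1% of all genes, with a median of 0.23. Nearest to the members were 18 other genes of kinesins, centrosome and cytokinesis, of which 7 (38.9%) were higher and 2 (11.1%) lower. They were led by Tacc3, a spindle microtubule protein (1.05, adjusted p = 0.0011), Cep55, a protein of abscission (0.88), and Ckap2l (0.83), while Kif18a, a kinesin of chromosome alignment, was lower (-0.83, adjusted p = 0.011). The 12 genes of the anaphase promoting complex had 0 higher and 5 (41.7%) lower, among them Anapc10 (-0.93), Cdc16 (-0.54), Anapc1 (-0.53) and Cdc27 (-0.47). Falls were common on this scale: of the 5297 genes at least as bright as the dimmest member, 290 were higher and 2254 lower. After quantile normalization 0 of the 12 were called.

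Of 14 other cyclins, inhibitors and regulators 3 (21.4%) were higher and 2 (14.3%) lower, against 10.4% and 23.7% of all genes. Fzr1, the activator CDH1 of the anaphase promoting complex, had -0.81 (adjusted p = 0.0026), Fbxo5, its inhibitor EMI1, 0.51, Cks1b, a CDK binding protein, 0.49 and Cdc25b, a CDK phosphatase, 0.43. Of 14 cell cycle transcription factors 2 (14.3%) were higher and 4 (28.6%) lower, with E2f3 at -0.73 and E2f2 at 0.83. Lin54 had -1.0 (adjusted p = 0.0016) and Lin9 -0.73, and both encode subunits of the MuvB complex that binds CHR elements. The subunits of MuvB did not fall together. Lin52 had 5.46 and 5.44 on the WT LMPP arrays and 4.75 and 4.93 on the WT LSK FLT3- arrays. Lin37 had 5.75 and 5.73 on the WT LMPP arrays and 5.70 and 5.75 on the WT LSK FLT3- arrays. Of 16 condensin and cohesin genes 2 (12.5%) were higher and 1 (6.25%) lower (Ncaph 0.60, Cdca5 0.43, Stag1 -0.68). Of 19 other kinetochore genes 1 (5.26%) was higher and 5 (26.3%) were lower, with Zwint at -0.75, Cenpt at -0.60, Cenpq at -0.54 and Spc25 at 0.47. These counts and changes hold on the deposited values. After quantile normalization 5 (26.3%) of the kinetochore genes were higher and 1 (5.26%) lower, against 9.1% and 10.1% of all genes. Condensin and cohesin had 6 (37.5%) higher and 0 lower, the regulators 4 (28.6%) and 1 (7.14%), and the transcription factors 3 (21.4%) and 2 (14.3%).

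Genes of DNA replication, which act in S phase before mitosis, did not show the members' rises. Of 26 measured, 2 (7.69%) were higher and 9 (34.6%) lower in WT LMPP than in WT LSK FLT3- (median -0.22), against 10.4% and 23.7% of all genes. After quantile normalization 4 (15.4%) were higher and 3 (11.5%) lower (median -0.01), against 9.1% and 10.1% of all genes. Ccne2, the gene of cyclin E2, had 6.14 and 6.19 on the WT LMPP arrays and 7.79 and 7.39 on the WT LSK FLT3- arrays, a change of -1.43 (SE 0.15, adjusted p = 0.000396) and of -1.04 (adjusted p = 0.0035) after quantile normalization. Pola1, a subunit of DNA polymerase alpha, had -0.89, Gins1, a subunit of the replicative helicase, -0.79 and Mcm2, another, -0.75, on the deposited values. Some genes went the other way. Uhrf1 had 9.10 and 9.16 on the WT LMPP arrays and 8.67 and 8.41 on the WT LSK FLT3- arrays. Rrm2 had 10.35 and 10.37 on the WT LMPP arrays and 9.86 and 9.81 on the WT LSK FLT3- arrays. Between E2A-KO LMPP and WT LMPP 0 of these 26 genes and 0 of the 93 other division genes were called, against 1.37% of all genes.

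**Figure D4:**
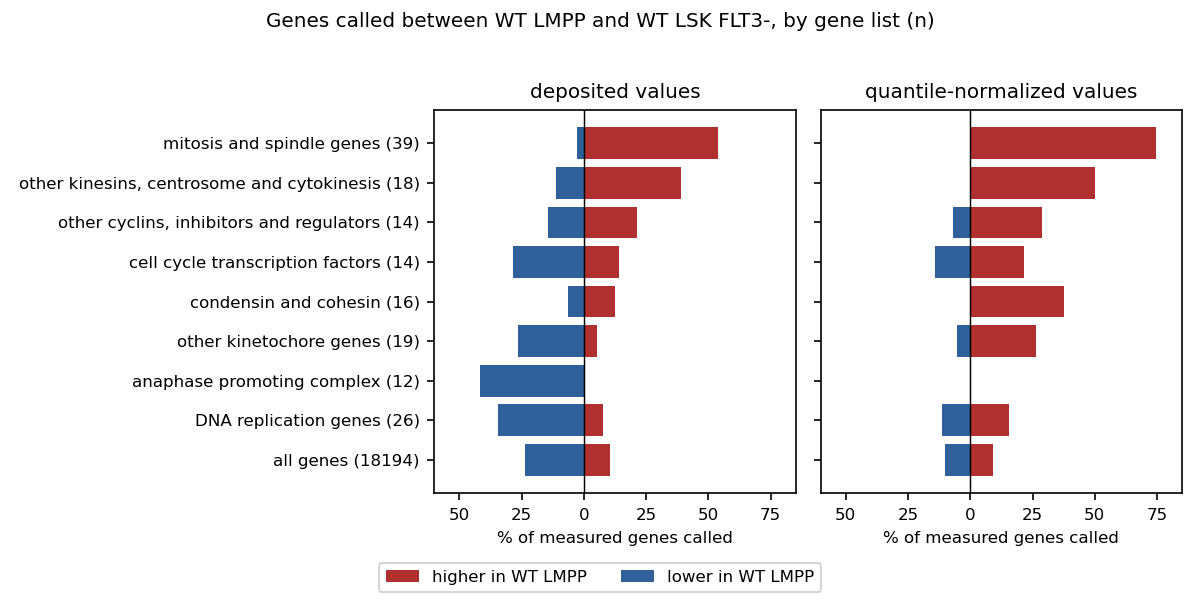
Share of the measured genes of each list called higher (right of 0) or lower (left of 0) in WT LMPP than in WT LSK FLT3-, in percent, on deposited and on quantile-normalized values, with the share of all 18194 genes at the bottom. The 39 mitosis and spindle genes show 53.8% higher and 2.56% lower on the deposited values and 74.4% higher after quantile normalization, while the anaphase promoting complex shows only lower calls on the deposited values and none after quantile normalization.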

How the data were processed

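Gene expression was measured on Affymetrix arrays from biotin-labelled cRNA made in a small-sample protocol that amplifies RNA from the 3' end, per the labels' protocols. The deposited values are probe set intensities on a linear scale (4.23 to 25594), made by the authors with RMA, a tool that the submitters' processing notes list without a version. It is unknown here if the arrays were normalized together. Of 45101 probe sets, the platform annotation gives 34958 a single symbol, 932 more than 1 and 9211 no symbol. Log2 was taken, and each of 18194 genes was read from its brightest probe set with 1 symbol. Each comparison used limma 3.58.1 in R 4.3.3 on all 6 arrays with 1 mean per group (3 residual and 5.80 prior degrees of freedom), two-sided p-values and Benjamini-Hochberg adjustment over all genes. Arrays have no read depth, and their number limits the precision. The test was checked on simulated data for E2A-KO LMPP against WT LMPP. It recovered 2.21% of changes of 0.5, 74.3% of changes of 1 and 99.1% of changes of 2.

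Groups follow the sample titles. The members, the gene lists and the named genes were chosen with earlier results of these data known. Every member is named with its change between WT LMPP and WT LSK FLT3-. Array values are given for the largest called rise or fall of each role and for Mki67, Top2a, Cdk1 and Plk1, and other lists are named by up to 4 called genes. Kif20a, Kif2c, Ccnb2, Ect2, Anln, Lin52, Lin37, Uhrf1 and Rrm2 were given array values after theirs were seen. Alternatives were quantile normalization, centring on array medians, only the 4 arrays of a comparison, the replicate number as a block, dropping the dimmest 40% of genes, averaging a gene's probe sets, a variance trend with robust estimation and leaving out each array in turn. Promoter windows are RefSeq's on GRCm38.p6. Figures used matplotlib 3.10.9 in Python 3.11.15.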

Additional observations from a re-analysis of the deposited data

How the results depend on the processing

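Quantile normalization moved both the number of calls and the median changes, and leaving out arrays moved mainly the number of calls. Between WT LMPP and WT LSK FLT3- the 21 higher and 1 lower members became 29 and 0 with quantile normalization, and the median change of 0.40 became 0.75. Leaving out each array in turn gave 7 to 21 higher and 0 to 1 lower members and medians of 0.40 to 0.50. The count of 7 came without WT LSK FLT3- replicate 1 and that of 8 without replicate 2, and both of these fits called 0 members lower. Between E2A-KO LMPP and WT LSK FLT3- the 15 higher and 1 lower members became 28 and 0 with quantile normalization (median 0.63, against 0.28), 8 and 2 with array median centring, and 2 were lower with a variance trend and robust estimation. Leaving out each array gave 5 to 16 higher, 0 to 1 lower and medians of 0.27 to 0.33, with 5 higher without either WT LSK FLT3- replicate and 0 lower without either of these or without E2A-KO LMPP replicate 2. Between E2A-KO LMPP and WT LMPP 0 members were called in every fit but the one with a variance trend and robust estimation, where 1 (Hmmr) was lower, and leaving out each array gave medians of -0.19 to -0.12. The mean of all probe sets turned Kif11 to -0.52 (adjusted p = 0.021) between E2A-KO LMPP and WT LSK FLT3-, against 0.18, through a dimmer probe set. Over all genes, quantile normalization moved the split between WT LMPP and WT LSK FLT3- from 1889 higher and 4309 lower to 1656 and 1840, and between E2A-KO LMPP and WT LSK FLT3- from 2002 and 4820 to 1593 and 2024.

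The replicate numbers share nothing that the labels state, and the deviations of same-numbered arrays correlated by 0.02, -0.02 and -0.04 between pairs of groups. With the replicate block, 19 members were higher and 1 lower in WT LMPP than in WT LSK FLT3-, 13 were higher and 1 lower in E2A-KO LMPP than in WT LSK FLT3-, and 0 were called between the LMPP groups. For the other mitosis genes, counts between WT LMPP and WT LSK FLT3- that moved by over 1.5 times beyond the quantile values of the report were 10 lower with the mean of all probe sets, and 5 and 8 higher and 4 and 5 lower without WT LSK FLT3- replicate 1 or 2. For the DNA replication genes, 0 were higher with the mean of all probe sets and 5 with a variance trend and robust estimation. The causes of these shifts were not tested.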

Other observations

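Between E2A-KO LMPP and WT LSK FLT3- the anaphase promoting complex had 0 of 12 genes higher and 7 (58.3%) lower on the deposited values. Over all genes 11% were higher and 26.5% lower. Among the 5297 genes at least as bright as the dimmest member, 235 were higher and 2498 lower. After quantile normalization 1 of the 12 (8.33%) was lower, against 11.1% of all genes. Anapc10, a subunit that helps bind substrates, had 6.46 and 6.10 (log2) on the E2A-KO LMPP arrays and 7.82 and 7.77 on the WT LSK FLT3- arrays, a change of -1.51 (SE 0.18, limma adjusted p = 0.000501) and of -1.09 (adjusted p = 0.0045) after quantile normalization. Lin54, the DNA-binding subunit of MuvB, had 5.80 and 5.85 on the E2A-KO LMPP arrays and 7.53 and 7.33 on the WT LSK FLT3- arrays, a change of -1.60 (SE 0.15) and of -1.18 (adjusted p = 0.0016) after quantile normalization. Ccne2 changed by -1.65 in the same comparison and by -1.24 (adjusted p = 0.0015) after quantile normalization. All 3 genes were also lower in WT LMPP than in WT LSK FLT3- on the deposited values, a comparison that shares the WT LSK FLT3- arrays. Lin52, another MuvB subunit, went the other way, with 5.3 and 5.2 on the E2A-KO LMPP arrays and 4.7 and 4.9 on the WT LSK FLT3- arrays.

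Of the 93 other mitosis genes 13 (14%) were higher and 21 (22.6%) lower in E2A-KO LMPP than in WT LSK FLT3- on the deposited values. After quantile normalization 27 (29%) were higher and 6 (6.45%) lower. The shares over all genes were 11% and 26.5% on the deposited values, and 8.76% and 11.1% after quantile normalization. Of the 26 DNA replication genes 3 (11.5%) were higher and 6 (23.1%) lower, and 5 (19.2%) were higher and 1 (3.85%) lower after quantile normalization. Rrm2, a subunit of ribonucleotide reductase, was among the higher ones, with a change of 0.64 (adjusted p = 0.0048) that became 0.89 (adjusted p = 0.0021).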
